A study of Drosophila melanogaster with 135 samples.

Results

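The proteasome is the protease that degrades ubiquitin-tagged proteins in the cytosol and nucleus of eukaryotic cells. Its subunit genes were followed here across aging and Polycomb Repressive Complex 2 (PRC2) deficiency in male Drosophila muscle and heads. A gene was included when its symbol began with Prosalpha, Prosbeta, Pros and a digit, Rpn or Rpt followed by a number, a rule on names that uses no measured value. It found 47 of 17023 genes, of which 32 are canonical subunits (14 of the core particle, 18 of the regulatory particle) and 15 are paralogs with an R or T in the symbol, known as testis-expressed copies. Prosalpha1 was listed at 0 in all 20 groups. The 732 bases of its coding sequence equal those of CG30382 at every position, and CG30382 was also listed at 0, so the values below concern 31 canonical subunits, 13 core and 18 regulatory.

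The core particle is a barrel of stacked rings in which alpha subunits form the gate and beta subunits the proteolytic chamber. Only Prosbeta1, Prosbeta2 and Prosbeta5 carry an active site. The regulatory particle sits on the end of the barrel. Its Rpt subunits are ATPases that unfold the substrate, Rpn10 and Rpn13 bind ubiquitin chains, Rpn1 and Rpn2 are scaffolds, Rpn11 removes ubiquitin, and Rpn3, Rpn5, Rpn6, Rpn7, Rpn8, Rpn9 and Rpn12 build the lid around it. Subunits are used in fixed proportions, and their genes are known to be induced together when proteasome activity falls, in flies through the transcription factor cnc and its partner maf-S.

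Messenger RNA was measured by polyA RNA-seq of pooled tissue, 30 muscles or 50 heads to a library, in 20 groups of 3 libraries. The tested groups at 30 days (30d) were heterozygous for CRISPR/Cas9 deletions of PRC2 subunits: esc (esc289), E(z) (E(z)239), Pcl (Pcl421), Su(z)12 (Su(z)12253), p55 (p55192, muscle alone), and the double heterozygotes esc289; E(z)239 and Pcl421; Su(z)12253. The labels number the Pcl alleles 421, 422 and 423 over the 3 libraries of each tissue, whereas the study's methods describe 1 Pcl allele. Each mutant gene is represented by 1 deletion line, backcrossed for 5 generations. Wild type (WT) was line 5905. There were 3 separate WT sets at 30d in each tissue, for the single mutants, for esc E(z) and for Pcl Su(z)12, and in muscle the set of Pcl Su(z)12 was compared with WT at 3d too. No young heads or young mutants entered these tables. All values are normalized counts, that is reads divided by the size factor of the library. The tables give group means, from which reads of single libraries were recovered as whole numbers, favouring a small spread where several solutions fitted. Libraries of a group are therefore ordered by size factor and carry no label of their own. Size factors ran from 0.727 to 1.55 and scaled totals from 3711360 to 11376000 reads.

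Marker genes fitted the tissue labels. The summed level of 8 muscle markers, all above 0 in every group, was 37131 to 195418 in muscle groups and 8405 to 15076 in head groups. For 8 photoreceptor and neuron markers it was 169007 to 254489 in heads and 1955 to 6215 in muscle. The mutated gene itself was lower in esc muscle (0.318 of WT), esc heads (0.598 of WT) and p55 muscle (Caf1, the fly p55 gene, 0.611 of WT), each with a limma adjusted p below 0.05. In esc E(z) muscle and heads, esc was at 0.439 and 0.815 of WT and was not called. E(z), Pcl and Su(z)12 stood between 0.820 and 1.12 of WT in the mutants that carry their deletions. Chi-square values between libraries of a group were 9.81 and 10.7 for the pairs with Su(z)12 head library 1, against at most 5.30 elsewhere. In pooled tissue, fewer cells of a type and less RNA per cell cannot be told apart.

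Some promoters of canonical subunits hold an 8-base motif that the choice by name did not use. TATCGATA, the core of the DNA replication-related element bound by the factor DREF in flies, stood within 250 bases before to 50 after the annotated start of 12 of 32 canonical subunits (37.5%), of 0 of 15 paralogs, and of 1257 of 13630 protein-coding genes (9.22%). The motif is its own reverse complement, so both strands are covered. To show what the copies share, 8 of the occurrences are given with 10 bases on each side, in capitals the motif, 5′ to 3′ on the gene's strand, from the RefSeq Release 6 (dm6) genome at starts of the Ensembl annotation:
Prosalpha6 (chr2L:10221325-10221352, +): ccgaatccctTATCGATAcccgatacac
Prosbeta2 (chr3L:14999931-14999958, +): catgaatataTATCGATAcaatatcgat
Prosbeta6 (chr3L:16610445-16610472, -): tatgtataccTATCGATAacgtttaagc
Rpn12 (chr3L:16582802-16582829, +): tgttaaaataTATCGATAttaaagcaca
Rpn3 (chr2L:19051583-19051610, +): gttatcggagTATCGATAtcgaaaaggc
Rpn7 (chr3R:22462034-22462061, -): cggtataattTATCGATAattttggggt
Rpn9 (chr3R:23733419-23733446, -): cccggttaaaTATCGATAttctcgcgga
Rpt5 (chr3R:23752820-23752847, +): tcgctgtcacTATCGATAagcgccggcg
The first base of the motif lay between 216 bases before the start (Rpn12) and 26 after it (Rpn9). The flanks differ from gene to gene.

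Prosalpha3, Prosalpha5, Prosbeta1 and Rpn13 hold the remaining 4 copies. TGACNNNGC is the consensus of the cnc and maf-S site. It was found on either strand in 5 of 32 canonical subunits (15.6%), 1 of 15 paralogs and 8.67% of all promoters. Subunits with and without TATCGATA had like median log2 ratios, for example 0.56 (n = 12) and 0.70 (n = 19) for 30d over 3d muscle, and -0.72 and -0.66 for Su(z)12 muscle over WT.

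Levels between genes were compared per kilobase of exon. In muscle, core subunits had a median of 591 normalized counts per kb over the 11 groups and regulatory subunits 415. Prosbeta5, the chymotrypsin-like protease, was highest at 907 per kb, followed by the caspase-like protease Prosbeta1 at 900.4 per kb, and their ranges over groups (632 to 1272 and 576 to 1159) overlapped. The lowest core subunit, Prosalpha6 (328 per kb), lay below the regulatory median. Rpt6 was highest among regulatory subunits (648 per kb) and the lid subunit Rpn7 lowest (245 per kb). Heads had lower and more even levels: the core median was 367 per kb, between Prosalpha6 at 253 and the trypsin-like protease Prosbeta2 at 441, and the regulatory median was 266 per kb, between Rpt5 at 206 and Rpt1 at 388. Tables were scaled separately, so these ranges include differences in scale. Exons of Prosbeta1, Prosbeta2, Prosbeta5, Rpt5, Rpt6 and Rpn7 overlap those of a neighbour, and the effect on these levels was not tested.

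**Figure D1:**
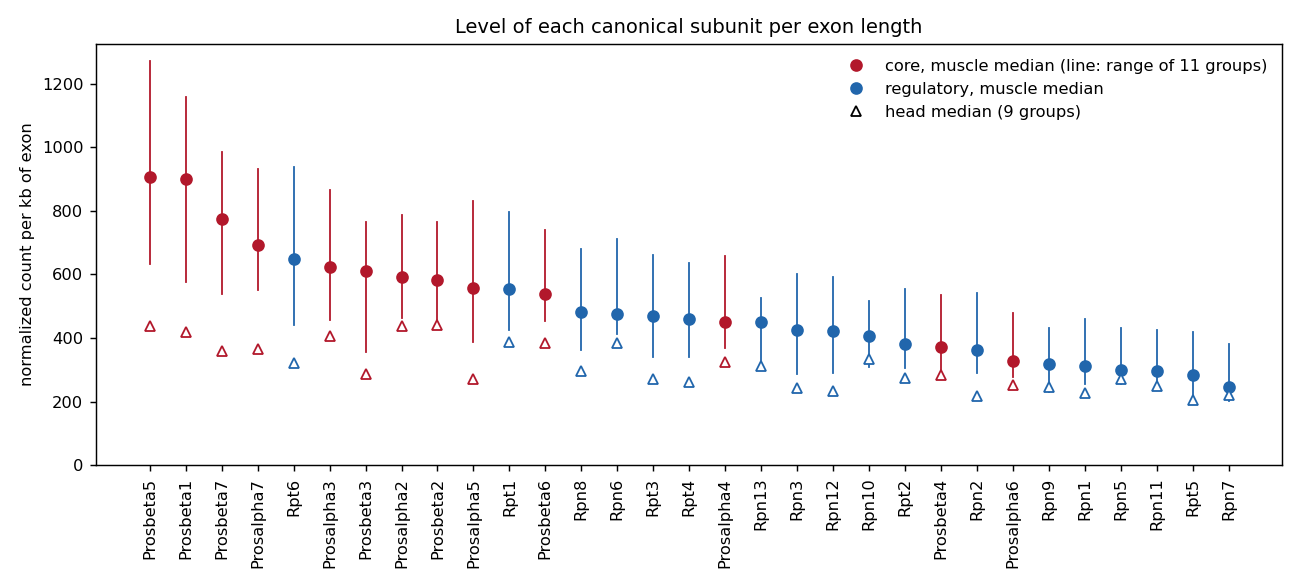
Level of each canonical subunit in normalized counts per kb of exon; filled circles are medians over 11 muscle groups (red core, blue regulatory) with a line for the range, open triangles are medians over 9 head groups. Core subunits have the higher muscle medians (591 against 415 per kb), and Prosbeta5 and Prosbeta1 stand first.

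Aging of WT muscle was examined first. From 26 subunits whose 6 libraries could all be read, 25 rose at 30d relative to 3d (limma, adjusted p below 0.05). Across all genes tested, 23.5% were called higher. Over 31 subunits the median log2 ratio of means was 0.61 (1.53-fold), between 0.19 and 1.07, against 0.019 for all 9294 genes with a mean of at least 10. The core median was 0.70 and the regulatory median 0.61. A fold threshold was also applied to the ratio of means, 0.32 on the log2 scale in either direction. Past it were 29 of 31 subunits, against 48.8% of all genes.

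The lid subunit Rpn3 had 1094, 1121 and 1096 normalized counts at 30d, against 514, 522 and 539 at 3d. Its log2 change was 1.07 (SE 0.058, limma adjusted p 3.3e-09). Prosbeta3, a structural subunit of the beta ring, was at 611, 713 and 729.8 at 30d and 324, 318 and 334 at 3d, a change of 1.07 (SE 0.079, limma adjusted p 7.5e-08). For Prosbeta1 the libraries held 968, 1041 and 952 at 30d, against 503, 483 and 485 at 3d (1.01, SE 0.062, limma adjusted p 1.3e-08). In each of these 3 genes the lowest 30d library lay far above the highest 3d library. No share of all genes is given for groups that do not overlap, here or below.

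Not all subunits moved that far. Prosbeta2 had 770.4, 841 and 763 normalized counts at 30d and 639.9, 530.5 and 555 at 3d, a log2 change of 0.46 (SE 0.076, limma adjusted p 0.00018). The ubiquitin receptor Rpn10 had 718, 753 and 728 at 30d, against 587, 555 and 656 at 3d (0.29, SE 0.070, limma adjusted p 0.0033), and was past the test but not past the fold threshold. Rpn7 was the subunit that did not pass: it had 516, 548 and 524 at 30d and 482, 408 and 505 at 3d (0.19, SE 0.082, limma adjusted p 0.068). The groups did not overlap for Rpn7 either. The gate subunit Prosalpha2 stood next to these lowest changes at 0.38.

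For 5 abundant subunits the 30d libraries could not be read and the group means alone are given. Prosbeta5 averaged 1448 at 30d and 807 at 3d, Rpt6 averaged 1315 at 30d and 726 at 3d, and Rpn2 averaged 1853 at 30d and 1097 at 3d. Rpn1 and Rpn6 had log2 ratios of 0.71 and 0.60. All 5 were within the range of the subunits tested.

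Cell markers moved with age as well. The muscle marker sum was 72097 at 30d and 195418 at 3d (log2 -1.44), the photoreceptor and neuron sum 3752 at 30d and 6215 at 3d, and the fat body sum 2533 at 30d and 2811 at 3d. Their part in the rise of the subunits was not tested. On a scale centred on all genes the median of the subunits was 0.59. With either other WT set at 30d in place of the WT muscle set, it was 0.77 and 1.17, and 31 of 31 subunits were above 0 with each.

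**Figure D2:**
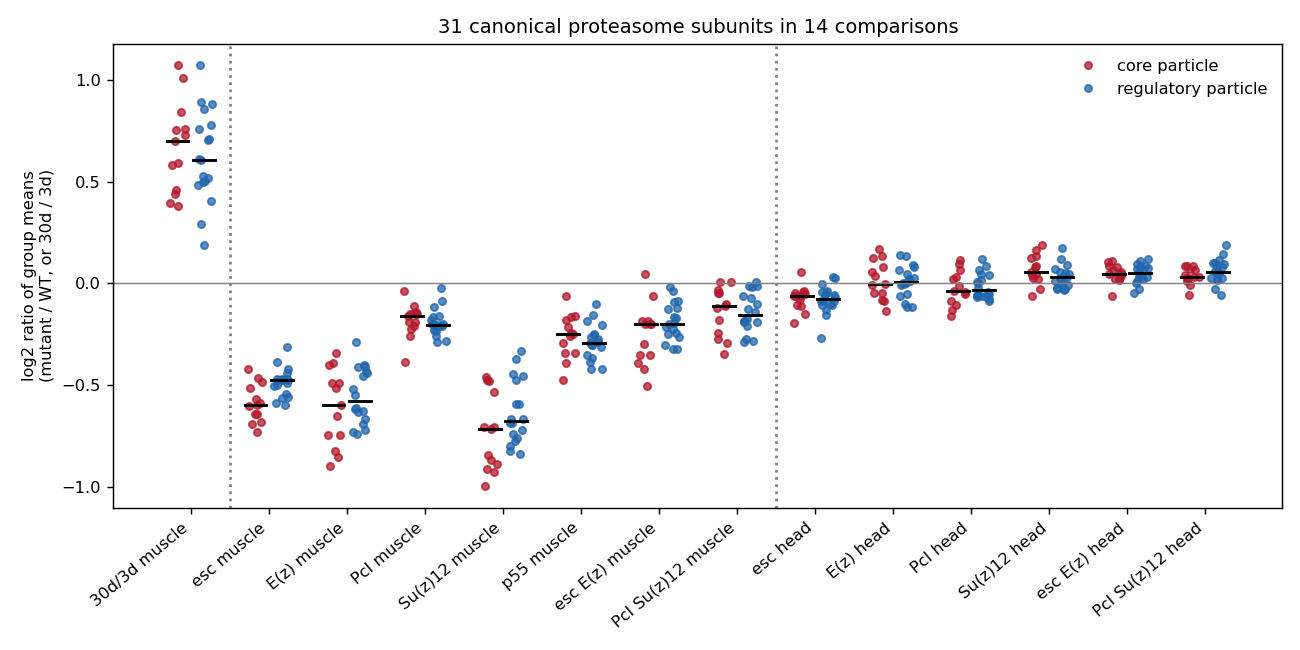
Log2 ratio of group means of the 31 canonical subunits in the 14 comparisons (mutant over WT, or 30d over 3d), red for the core and blue for the regulatory particle, with a black line at each median. All 31 points are above 0 for age and below 0 for esc, E(z), Pcl, Su(z)12 and p55 muscle, while head medians lie between -0.064 and 0.053.

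In muscle of the single mutants at 30d, canonical subunits were below the WT control in all 31 cases for each of esc, E(z), Pcl, Su(z)12 and p55. These 5 comparisons share the same 3 WT libraries. The median log2 ratio was -0.70 in Su(z)12, -0.60 in E(z) and -0.51 in esc, whereas p55 and Pcl had -0.27 and -0.20. The sum of 5 fat body markers was also lower than in WT muscle (1986) in esc (1441), E(z) (1402), p55 (1484) and Pcl (1560.2) muscle, but higher in Su(z)12 muscle (2241), where the subunits were lowest. Sums of 8 muscle markers differed from WT by -0.11 to 0.075 on the log2 scale. Single markers could differ more than their sum, or in opposite directions. Of 3 fat body markers tested in E(z) muscle, limma called 1 higher and 1 lower. Act88F averaged 510 in Su(z)12, 1004 in p55, 1137 in E(z), 1305 in esc and 1796 in Pcl muscle, against 1634 in WT muscle. The part of these markers in the fall of the subunits was not tested. Among 26 subunits tested, 25 fell in Su(z)12, 21 in E(z) and 25 in esc (limma, adjusted p below 0.05), against 3.49%, 2.03% and 3.05% of all genes called lower. Past the fold threshold were 31, 30 and 30 subunits, against 17.9%, 15.2% and 16.9% of all genes. In Pcl no subunit was called by limma (1.28% of all genes lower), although 7 had an unadjusted p below 0.05. In p55 none was called (0.987% of all genes lower), with 11 below an unadjusted 0.05. No share of all genes is given for the unadjusted cut, here or below, so these counts have no background. Past the fold threshold were 1 subunit in Pcl and 9 in p55, against 13.9% and 16.2% of all genes.

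Prosalpha5, a subunit of the alpha ring, had the lowest ratio in each of the 5. It had 332, 398 and 371 normalized counts in Su(z)12 muscle, against 549.8, 982 and 664 in WT muscle (log2 -0.96, SE 0.15, limma adjusted p 0.00059). In E(z) muscle the 3 libraries held 396, 370.3 and 412 (-0.85, SE 0.15, limma adjusted p 0.0034), and in esc muscle 499, 436 and 389.7 (-0.69, SE 0.14, limma adjusted p 0.0036). The libraries of these mutants did not overlap WT. Pcl muscle with 608, 509.6 and 564 and p55 muscle with 606, 463.5 and 514 did overlap, since the lowest WT library had 549.8. Prosalpha5 lies on arm 2R, 721.7 kb from Pcl.

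All 3 catalytic subunits were below WT in each of the 5. Their order differed: Prosbeta2 had a log2 ratio of -0.64 in esc and -0.60 in E(z) muscle, and Prosbeta1 -0.57 in esc and -0.85 in E(z) muscle. Prosbeta1 had 494, 548 and 472 in Su(z)12 muscle and 776, 1226 and 839.6 in WT muscle (-0.88, SE 0.13, limma adjusted p 0.00034), and 493, 531 and 549 in E(z) muscle (-0.82, SE 0.13, limma adjusted p 0.0015). Prosbeta2 had 545, 440.2 and 429 in esc muscle, against 646, 839 and 721 in WT muscle (-0.64, SE 0.099, limma adjusted p 0.00036). Prosbeta5, whose WT libraries could not be read, averaged 719.9 in Su(z)12 and 817 in E(z) muscle, against 1366 in WT muscle.

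Regulatory subunits fell with similar sizes. Among the ATPases, Rpt5 had 350.4, 359 and 363 in Su(z)12 muscle, against 519.7, 634 and 609 in WT muscle (-0.71, SE 0.086, limma adjusted p 7.1e-05). Rpt3 had 494, 549 and 584 in E(z) muscle, against 723, 1141 and 851 in WT muscle (-0.71, SE 0.12, limma adjusted p 0.0036). The lid subunit Rpn8 had 587, 608 and 592 in E(z) muscle, against 846, 1181 and 935 in WT muscle (-0.71, SE 0.097, limma adjusted p 0.00076). None of these groups overlapped, again with no share of all genes beside it.

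The smallest ratios also came from the lid. Rpn6 had 849, 875 and 779 in Su(z)12 muscle, against 989, 1154 and 1005 in WT muscle (-0.33, SE 0.077, limma adjusted p 0.015), but 824, 806 and 945 in E(z) muscle, where it did not pass (-0.29, SE 0.080, limma adjusted p 0.063). Rpn7 did not pass in esc muscle, with 317, 296 and 316 against 364, 443 and 346 in WT muscle (-0.30, SE 0.094, limma adjusted p 0.068). The deubiquitinase Rpn11 was the subunit not called in Su(z)12, with 299.8, 339.5 and 327.5 against 328, 509 and 414 in WT muscle (limma adjusted p 0.11), where the groups overlapped. In E(z) muscle the other subunits not called were Prosalpha2, Prosalpha6, Prosbeta6 and Rpn11.

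Differences between the particles were small next to the common shift. The core median minus the regulatory median was -0.12 in esc, -0.017 in E(z) and -0.043 in Su(z)12 muscle, 0.044 in Pcl and 0.040 in p55 muscle, and 0.092 for age. Rpn1, whose gene begins 0.082 kb from Su(z)12 on arm 3L, had log2 ratios of -0.66 in Su(z)12 and -0.52 in E(z) muscle, inside the range of the other subunits.

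**Figure D3:**
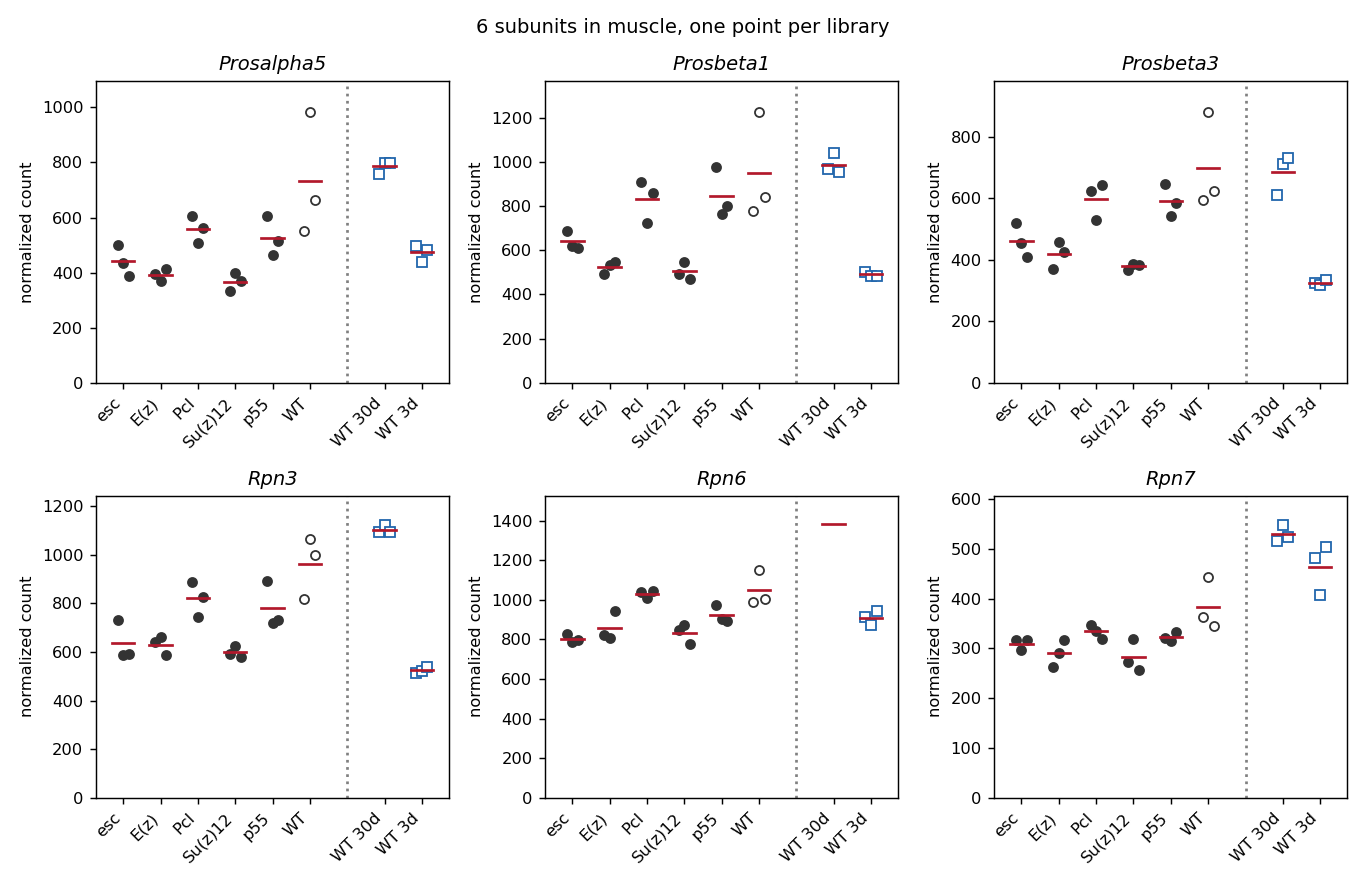
Normalized counts of Prosalpha5, Prosbeta1, Prosbeta3, Rpn3, Rpn6 and Rpn7 in muscle, a point for each library and a red line for the group mean; left of the dotted line the single mutants (filled) and their WT (open circles) at 30d, right of it WT at 30d and 3d from another table (squares). The WT circles spread widely for Prosalpha5, between 549.8 and 982, and Rpn6 at 30d shows the mean alone because its libraries could not be read.

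The WT control of these 5 comparisons stood apart from the other WT muscle sets. After centring on all genes, it was higher than the WT control of esc E(z) by a median of 0.47 and in 31 of 31 subunits, and the WT set of Pcl Su(z)12 was lower than it by a median of 0.52, also in 31 of 31. Past the fold threshold were 27 and 28 subunits, against 17.7% and 18.2% of all genes. The other WT sets differed from each other by a median of -0.053 (WT set of Pcl Su(z)12 over WT control of esc E(z)). Between them no subunit was past the fold threshold, against 14.4% of all genes. The 3 libraries of the WT control of the single mutants were themselves uneven. Summed over 26 subunits they held 15922, 22101 and 17756 normalized counts. The same sums were 11475, 12515 and 11401 in Su(z)12 and 12345, 12393 and 12968 in E(z) muscle.

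The falls in the single mutants rest on that set. Set against the WT control of esc E(z) and the WT set of Pcl Su(z)12, centred, the median ratio was -0.24 and -0.14 for Su(z)12, -0.14 and -0.052 for E(z), and -0.063 and -0.0067 for esc. Below 0 were 28 and 28 of 31 subunits for Su(z)12, 25 and 20 for E(z), and 26 and 19 for esc. Past the fold threshold were then 10 and 2 subunits for Su(z)12, 3 and 0 for E(z), and 0 and 0 for esc. The share of all genes was not counted for these swaps. Between the WT muscle sets themselves it was 14.4% to 18.2%. For Pcl the direction turned, to 0.27 and 0.31 with 31 of 31 subunits above 0, and for p55 it turned to 0.18 and 0.19. Whether the mutants or the WT libraries account for the shift cannot be told apart from these tables. Because subunits of a library deviate together, the 25, 21 and 25 calls are not independent of each other.

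The calls also depended on how limma estimated the variance. With a variance prior that did not follow the mean, 0 subunits were called in esc and E(z), and 7 in Su(z)12. For this prior and for libraries left out, no share of all genes is given, here or below. Leaving out esc library 3 left 15 calls in esc muscle. Leaving out WT library 1 gave 4 calls in Pcl muscle, and leaving out p55 library 1 gave 2 in p55 muscle. The count past the fold threshold was 9 in Pcl and 20 in p55 muscle without WT library 1, 0 in Pcl and 5 in p55 muscle without WT library 2, and 15 in p55 muscle without WT library 3. It was 18 in p55 muscle without p55 library 1, 2 in Pcl muscle without Pcl library 1 or 3, and 0 without Pcl library 2.

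**Figure D4:**
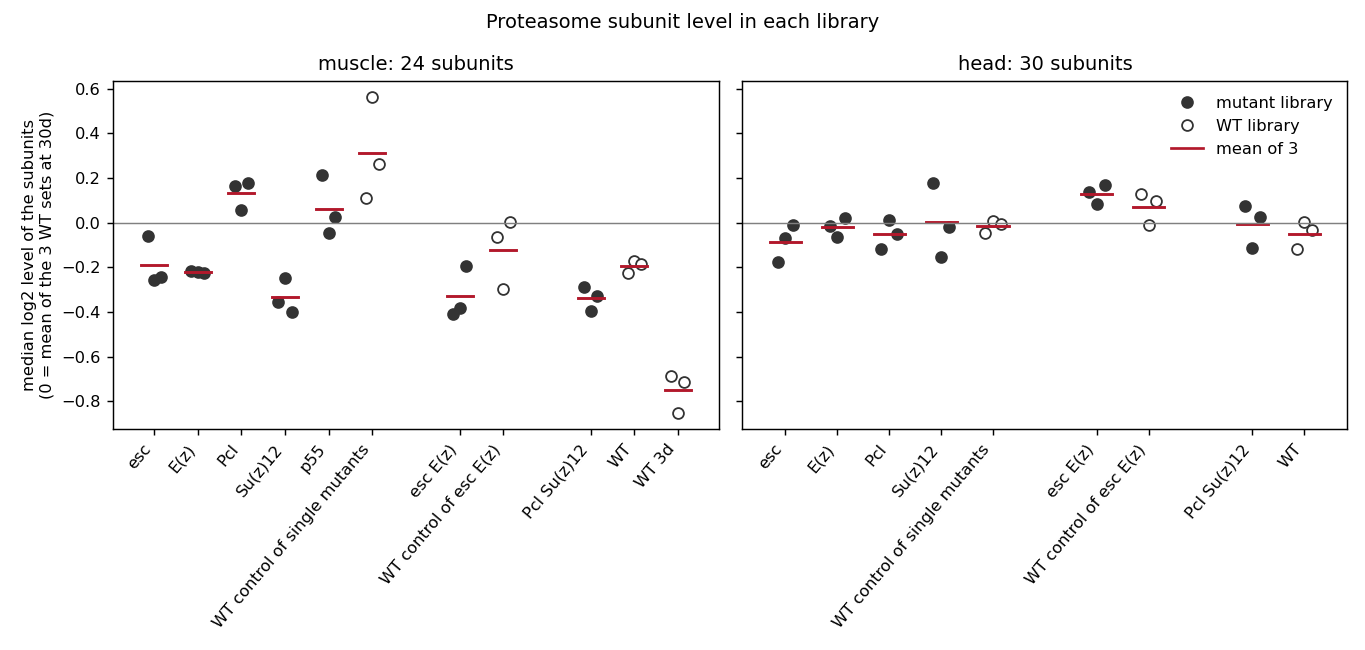
Median log2 level of the canonical subunits in every library on a common scale (24 subunits in muscle, 30 in heads, 0 is the mean of the 3 WT sets at 30d), filled for mutants, open for WT, with a red line at the mean of 3. The 3 WT libraries of the single mutants lie at 0.11 to 0.56, those of the other WT muscle sets at -0.30 to 0.00, and WT muscle at 3d at -0.85 to -0.69.

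Double mutants in muscle were each compared with their own WT set. In esc E(z) the median log2 ratio was -0.20, with 30 of 31 subunits below 0, and 3 of 28 tested fell (limma, adjusted p below 0.05; 2.77% of all genes lower): Prosalpha5, Prosbeta1 and Prosbeta2. An unadjusted p below 0.05 was found for 18, with no share of all genes to set beside it. Past the fold threshold were 6, against 14.3% of all genes. Prosalpha5 was again lowest, with 389.6, 399 and 419.7 in esc E(z) muscle, against 638, 445 and 629.9 in WT muscle (-0.48, SE 0.12, limma adjusted p 0.034). Prosbeta1 had 574, 555 and 594 in esc E(z) muscle, against 782, 652 and 868 in WT muscle (-0.41, SE 0.091, limma adjusted p 0.024). The groups did not overlap in either gene. The 3 calls became 12 without WT library 2 and 0 without esc E(z) library 1, esc E(z) library 2, WT library 1 or WT library 3, and 1 without esc E(z) library 3. The count past the fold threshold was 13 without WT library 2 and 2 without WT library 3.

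In Pcl Su(z)12 muscle the median was -0.12, with 28 of 31 below 0, and 5 of 25 tested fell (2.78% of all genes lower). They were Prosbeta1, Prosbeta3, Prosalpha5, Rpn3 and Rpt3. Only Prosbeta1 was past the fold threshold, against 14.2% of all genes: it had 768, 804 and 759 in Pcl Su(z)12 muscle, against 968, 1041 and 952 in WT muscle (-0.34, SE 0.054, limma adjusted p 0.0030). Rpn3 had 884, 888 and 949.7 in Pcl Su(z)12 muscle, against 1094, 1121 and 1096 in WT muscle (-0.28, SE 0.049, limma adjusted p 0.0056). At the other end Prosbeta4, a structural subunit of the beta ring, had 412, 436 and 459 in Pcl Su(z)12 and 413, 419 and 469.8 in WT muscle, a log2 change of 0.01 with overlapping groups. The 5 calls became 2 without Pcl Su(z)12 library 2, WT library 2 or WT library 3. The count past the fold threshold was 3 without WT library 1 and 0 without WT library 2. This WT muscle set served as 30d muscle in the comparison with 3d, where Rpn3, Prosbeta3 and Prosbeta1 had the highest ratios. Without the trend in the variance prior no subunit was called in either double mutant.

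Against the WT control of the single mutants, centred, the median was -0.64 for esc E(z) and -0.68 for Pcl Su(z)12. On the common scale, esc E(z) (mean -0.33), Pcl Su(z)12 (-0.34), Su(z)12 (-0.33), E(z) (-0.22) and esc (-0.19) lay below or near the lower WT sets (-0.12 and -0.19), Pcl (0.13) and p55 (0.063) above them, and the WT control of the single mutants highest (0.31). WT muscle at 3d was lowest of all 11 groups (-0.75).

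Heads showed no such shift. Median log2 ratios over WT heads were 0.053 for Pcl Su(z)12, 0.048 for esc E(z), 0.040 for Su(z)12, 0.0012 for E(z), -0.038 for Pcl and -0.064 for esc. Of the 31 subunits tested (30 in Pcl Su(z)12), limma called 1 in esc, Rpn13, and 0 in the other 5, where an unadjusted p below 0.05 was found for 1 subunit in Pcl Su(z)12 and for 0 in each of the rest. Of all genes, limma called in either direction 4.04% for Pcl Su(z)12, 7.12% for esc E(z), 2.53% for Su(z)12, 4.85% for E(z), 7.18% for Pcl and 4.45% for esc. No subunit was past the fold threshold in heads, against 12.1%, 14.4%, 22.7%, 13%, 13.2% and 10.8% of all genes in that order. The ubiquitin receptor Rpn13 had 422, 428 and 453 in esc heads, against 480.1, 583.5 and 504 in WT heads (-0.26, SE 0.072, limma adjusted p 0.038). It lost its call without any of the 3 esc libraries or without WT library 2, and 3 subunits of esc heads had an unadjusted p below 0.05. The SE of the log2 change of a subunit in heads was 0.057 to 0.18. Prosalpha5, lowest in muscle, was at 416, 419.9 and 425 in Pcl Su(z)12 heads, against 399, 451 and 464 in WT heads, with overlapping groups.

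The change in muscle was then compared with the change in heads by an interaction term in limma. It was more negative in muscle for 12 of 26 subunits in E(z), 9 of 26 in Su(z)12 and 2 of 26 in esc, against 0.614%, 0.509% and 0.296% of all genes. It was called for none of 26 in Pcl, 25 in Pcl Su(z)12 and 28 in esc E(z), against 0.126%, 0.199% and 0.188% of all genes. Rpn9 differed by -0.80 in E(z) (SE 0.11, limma adjusted p 0.0022) and by -0.73 in Su(z)12 (SE 0.14, limma adjusted p 0.028). The 2 subunits in esc were Rpn3 (-0.61, SE 0.13, limma adjusted p 0.027) and Prosbeta2 (-0.56, SE 0.12, limma adjusted p 0.038). With each library left out in turn the counts were 4 to 21 in E(z), 0 to 16 in Su(z)12 and 0 to 15 in esc. The muscle side of each of these tests uses the WT control that stood apart, whereas the 3 WT head sets differed in their subunit medians by -0.13 to -0.044.

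Genes that assemble, feed or regulate the proteasome were taken from a list of 19, of which 18 were found. For age 6 of 11 tested rose and none fell (limma, adjusted p below 0.05), where 23.5% of all genes were called higher. REG, the activator of the nuclear core particle, had 747, 736 and 719 at 30d, against 431, 469.8 and 409.7 at 3d (0.75, SE 0.069, limma adjusted p 7.3e-07). The others were rngo, p47, Ufd1-like, Rad23 and ntc, which act as shuttles, as cofactors of the unfoldase TER94 or as a ubiquitin ligase component. Members too abundant to be read have means alone: the unfoldase TER94 averaged 3731 at 30d and 2365 at 3d, and the shuttle Ubqn 1986 at 30d and 1432 at 3d, while the TER94 cofactor Npl4 went the other way, with 23382 at 30d and 38683 at 3d (log2 -0.73).

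The single mutants of muscle were again set against the WT control that stood apart. In Su(z)12 muscle 5 of 11 fell, where 3.49% of all genes were called lower, among them Pomp, the assembly chaperone of the core, with 238, 242 and 244 normalized counts, against 313, 427 and 344 in WT muscle (-0.57, SE 0.10, limma adjusted p 0.0027). The substrate shuttle Rad23 had 449, 427 and 449 in Su(z)12 muscle, against 652, 781 and 707 in WT muscle (-0.69, SE 0.081, limma adjusted p 5.3e-05). In esc muscle 4 of 11 fell (p47, Ufd1-like, Rad23 and ntc, where 3.05% of all genes were called lower), and in E(z) muscle 3 of 11 (Ufd1-like, Rad23 and the deubiquitinase Uch-L5, where 2.03% were). TER94, not tested, had log2 ratios of -0.52 in Su(z)12, -0.37 in E(z) and -0.48 in esc muscle, and Ubqn -0.33 in esc muscle. The partner of cnc, maf-S, went the other way: it was higher in Su(z)12 muscle, with 348, 349 and 359.5 normalized counts, against 264, 308 and 287 in WT muscle (0.30, SE 0.086, limma adjusted p 0.046), and in E(z) heads (0.32, SE 0.071, limma adjusted p 0.011). No list member that could be tested was called in the other comparisons. Lower past the fold threshold without a call were Pomp, p47 and ntc in E(z) muscle and Uch-L5 in Pcl and p55 muscle. Higher past it, also without a call, were Uch-L5 in Pcl Su(z)12 muscle and Su(z)12 heads and maf-S in p55 muscle and Su(z)12 heads. So was ntc in E(z) and Pcl heads.

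The widest ratio on the list was that of Ubi-p5E, a polyubiquitin gene, which could not be tested because its libraries were not all read. It averaged 769 in esc E(z) muscle and 2841 in WT muscle (log2 -1.89), and 1089 in esc E(z) heads and 3278 in WT heads (-1.59). Ratios were also low in p55 muscle (-1.01), esc muscle (-0.88), esc heads (-0.66), E(z) heads (-0.34) and E(z) muscle (-0.31). In Su(z)12, Pcl and Pcl Su(z)12 they lay between -0.10 and 0.13 in muscle and between 0.030 and 0.067 in heads. The other polyubiquitin gene, Ubi-p63E, was past the fold threshold in E(z) heads alone (0.35, not tested). Both genes consist of near-identical ubiquitin repeats, and how far their reads can be told apart was not tested.

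Most testis paralogs were near the detection limit. All 15 together had 2195 reads in 60 libraries, of which Rpt4R had 778 and Rpt3R 610. Of the 15, 12 stayed below a mean of 10 in every group and 5 of those below a mean of 1. Prosbeta5R2, a copy of Prosbeta5, had 2 reads in the whole series. The summed level of 12 testis markers was 5.19 to 44.9 in muscle groups, with 0 to 6 of them at 0, and 13.9 to 47.3 in head groups, with 1 to 7 at 0.

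Rpt4R, a copy of the ATPase Rpt4, differed between tissues. In 27 head libraries it had 13.3 to 65.1 normalized counts with a median of 25.3, and none was at 0. In 33 muscle libraries it had 0 to 4.38, and 21 were at 0. The libraries of the tissues did not overlap, although the tables were scaled separately. Its canonical partner Rpt4 had the reverse order per kb of exon, with a median of 262 in heads and 458 in muscle.

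Rpt3R was found in both tissues, with group means of 4.31 to 18.7 in muscle and 5.73 to 16.2 in heads. It was highest in Pcl Su(z)12 muscle with 23.5, 13.3 and 19.3, against 7.83, 6.34 and 11.5 in WT muscle. These groups did not overlap, and the change of 1.05 (SE 0.33) missed the threshold (limma adjusted p 0.094). Rpt6R had 22.8, 4.15 and 7.89 in the same Pcl Su(z)12 libraries and a mean of at most 1.34 in heads. Testis markers were uneven in these libraries too: summed over the 10 of 12 markers read in all 6 libraries they had 72.6, 12.4 and 24.6 normalized counts in Pcl Su(z)12 muscle, against 14.1, 37.3 and 12.3 in WT muscle. Library 1 of Pcl Su(z)12 was thus highest for the markers, for Rpt6R and for Rpt3R. In p55 muscle the 12 markers summed to 8.15, 67.9 and 2.31 over the libraries. In the same order Rpt6R had 5.71, 8.93 and 8.08, and Rpt3R had 9.78, 12.5 and 5.77. The part of testis RNA in these values was not tested. Of 9 tests of paralogs with sufficient counts, limma called none. An unadjusted p below 0.05 was found for 4, again without a share of all genes. Of the other paralogs with a mean of 1 or more in a group, Prosalpha4T1 was highest, at 7.08 in esc heads, followed by Prosbeta2R2 at 5.35 in Pcl Su(z)12 heads, Prosalpha4T2 at 4.60 and Prosalpha3T at 3.40 in the same group, Prosalpha6T at 4.16 in WT heads, and Prosbeta5R1 and Rpn12R at 1.19 and 1.06 in Pcl Su(z)12 muscle.

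**Figure D5:**
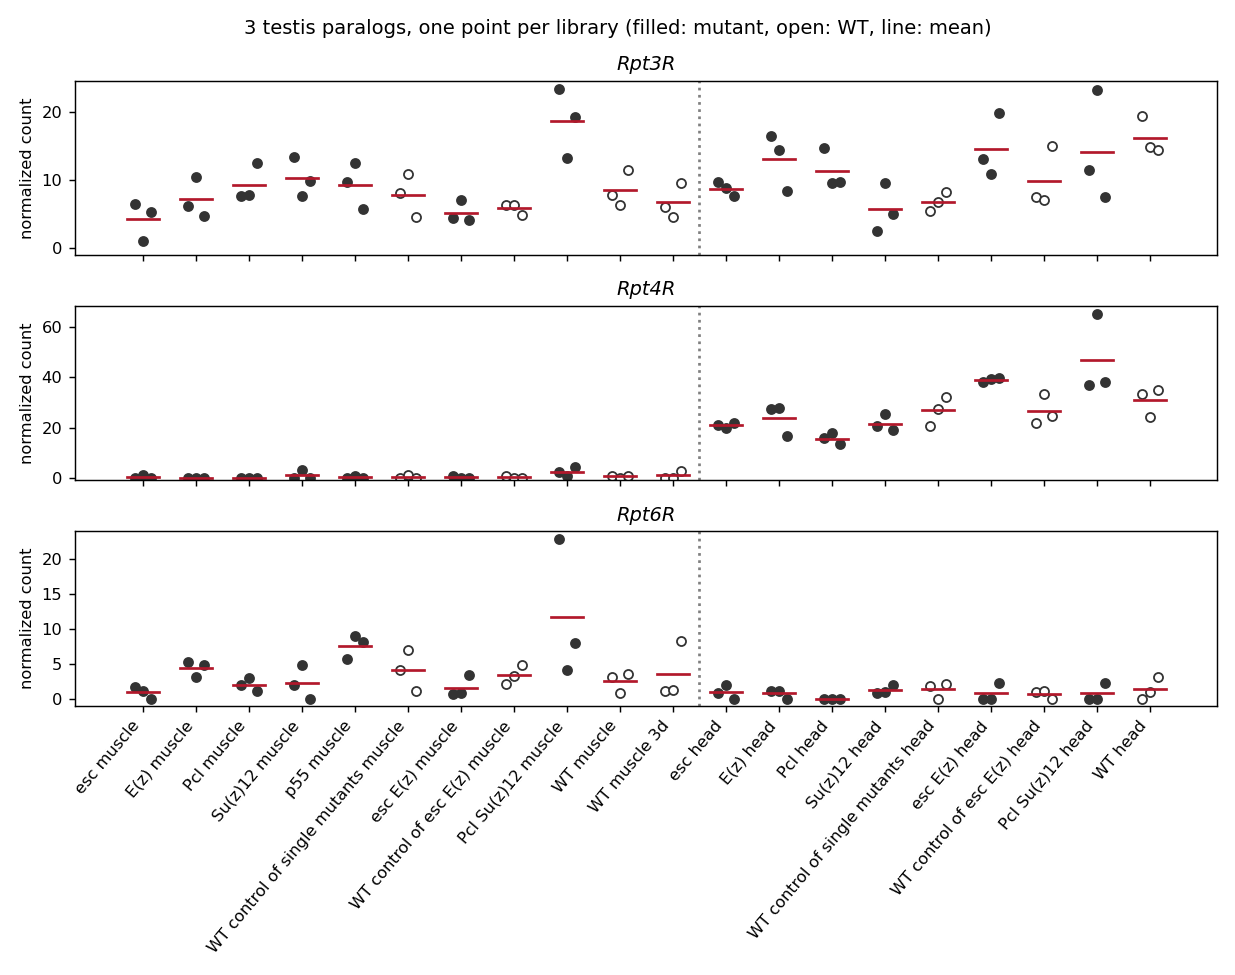
Normalized counts of Rpt3R, Rpt4R and Rpt6R, a point for each of 3 libraries in 20 groups (filled mutant, open WT, red line the mean), muscle left and heads right of the dotted line. Rpt4R is at 13.3 to 65.1 in heads and 0 to 4.38 in muscle, and Rpt6R reaches 22.8 in a single Pcl Su(z)12 muscle library.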

How the data were processed

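Male flies were used. Single-end reads of 100 bases were aligned by the authors with STAR to dm6, counted per gene with HTSeq without strand, and normalized with DESeq, per the labels and the study's methods. The deposited values used here are a signal, the mean normalized count of a gene over the 3 libraries of a group, in 14 mRNA tables of 17023 genes. The deposited fold change and p-value columns hold the authors' own comparisons and were not used. The 2 small RNA tables were not analysed here. No per-sample column was left unused (0).

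A mean of 3 whole counts divided by size factors takes only certain values, so the reads of each library were solved from the printed digits (Python 3.11.15, numpy 2.4.6, numba 0.67.0, pandas 2.3.3), up to a mean of 2000, and kept at a solution weight of at least 0.99. Where several solutions gave the printed mean, those whose 3 normalized counts spread less had more weight, so small spread was then a criterion. Of genes with a mean of 10 to 1000, 99.5% or more were read in every group, and 83.9% to 94.5% of all genes with a mean of at least 10. On simulated data 43936 of 43948 genes were read and 0 wrongly. Because these reads were recovered and not given, no count model was run. Libraries 1 to 3 are numbered from the largest size factor down and match no replicate number of the labels. Genes with a mean of at least 10 and all libraries read were tested with limma 3.58.1 (R 4.3.3) on log2(normalized count + 1), with a trend in the variance prior and Benjamini-Hochberg adjustment over all genes tested (7878 to 8451 a comparison). Fold changes on that scale understate the change of low genes. Unread genes, mostly above 1000, have a ratio of group means but no test. The fold threshold, 0.32 on the log2 scale, was applied to ratios of group means. The interaction of tissue and genotype was fitted on log2 values of both tissues. On simulated data made from E(z) muscle (8012 genes), limma recovered 92 of 100 genes changed by 1 on the log2 scale and 59 of 100 changed by 0.5, and 6 of 157 calls were wrong. Genes were drawn independently there, with no shift shared by the subunits of a library and no control set that stood apart. That error rate therefore does not carry over to the calls of the subunits.

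Libraries are pools of flies, and p-values measure the spread between these pools. An exact permutation test of 3 against 3 cannot go below 0.1 and was not used. Groups came from sample titles and table names, since some sample descriptions name another table. Named subunits are the 3 with the highest and the 3 with the lowest ratio of a comparison, those past the fold threshold in 3 or more comparisons, paralogs with a mean of at least 1 in a group and list genes past the fold threshold, with further subunits named after their values were seen. The members and lists were chosen with earlier results of these data known. Exons of 13 canonical subunits overlap those of a neighbour, for example Prosbeta1 with CG8389 and Rpn7 with CG34376, and without strand their reads cannot be told apart. Alternatives were other pseudocounts, filters, folds and scalings, leaving out each library, other WT sets and a prior without trend.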

Additional observations from a re-analysis of the deposited data

Results flagged for a closer look

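In esc, E(z) and Su(z)12, canonical subunits were found whose change differed between muscle and heads by the interaction test in limma, 2 in esc, 12 in E(z) and 9 in Su(z)12, of 26 tested in each, against 0.296%, 0.614% and 0.509% of all genes. With each library left out in turn the counts were 0 to 15 in esc, 4 to 21 in E(z) and 0 to 16 in Su(z)12. All were more negative in muscle. In esc they were Rpn3 and Prosbeta2. The median difference of the changes, muscle minus heads, was -0.43 in esc, -0.53 in E(z) and -0.73 in Su(z)12. In Su(z)12 the largest was that of Prosbeta1 (-1.03, SE 0.21, limma adjusted p 0.032), and in E(z) that of Prosbeta1 was -0.82 (SE 0.17, limma adjusted p 0.025). The WT muscle libraries of these comparisons had subunit levels above both other WT muscle sets, by medians of 0.47 and 0.52, and their part in the difference was not tested.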

How the results depend on the processing

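No paired analysis was possible because the recovered libraries carry no replicate numbers. The direction of every muscle median held under the pseudocounts, the filter, centring, the mean in place of the median and each library left out. Past 1.5-fold were 18 subunits for age (24.1% of all genes), 22 in Su(z)12 (5.66%), 16 in E(z) (4.12%) and 10 in esc muscle (4.82%), and 0 in Pcl, p55, esc E(z) and Pcl Su(z)12 muscle (3.60% to 4.95%). Past 1.2-fold were 3 in Pcl (20.0%), 16 in p55 (23.7%) and 6 in Pcl Su(z)12 muscle (19.3%), and 1 in esc heads (15.3%). Without a trend in the prior, limma called 7 in Su(z)12 muscle and 0 in muscle of Pcl Su(z)12, esc E(z), E(z) and esc and in esc heads. No share of all genes is given for that prior. As means, core minus regulatory was 0.0026 in Pcl Su(z)12 and -0.068 in esc E(z) muscle.

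Alternatives with other WT sets and the prior without trend were chosen after seeing the data. Centred, against the WT control of esc E(z) and then the WT set of Pcl Su(z)12, muscle medians were -0.063 and -0.0067 in esc, -0.14 and -0.052 in E(z), 0.27 and 0.31 in Pcl, -0.24 and -0.14 in Su(z)12, and 0.18 and 0.19 in p55. Against the WT control of the single mutants they were -0.68 for Pcl Su(z)12 and -0.64 for esc E(z), and Pcl Su(z)12 had -0.24 against the WT control of esc E(z). Age had 0.77 and 1.17. In heads, against the WT control of esc E(z), medians were -0.15 in esc, -0.087 in E(z), -0.14 in Pcl and -0.080 in Pcl Su(z)12. Against the WT head set Pcl had 0.015 and esc E(z) 0.17, and against the WT control of the single mutants esc E(z) had 0.15.

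With each library left out in turn, calls were 15 to 25 in esc, 0 to 4 in Pcl, 0 to 2 in p55, 0 to 12 in esc E(z) and 2 to 6 in Pcl Su(z)12 muscle, and 0 to 1 in heads of Pcl Su(z)12 and of esc. Counts past the fold threshold were 0 to 9 in Pcl, 5 to 20 in p55, 2 to 13 in esc E(z) and 0 to 3 in Pcl Su(z)12 muscle, and 0 to 1 in esc heads. The age median was 0.60 to 0.67. Core minus regulatory was 0.029 to 0.15 for age, -0.13 to -0.035 in Su(z)12, -0.056 to 0.0075 in esc E(z) and 0.025 to 0.090 in Pcl Su(z)12 muscle, and -0.030 to 0.032 in E(z) heads. The cause of these shifts was not tested.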
